A study of Mus musculus with 12 samples.

Results

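The comparison of Lmx1b knockout with wild-type limbs at 11.5 days post coitum (dpc) rested on 4 of the 12 microarrays of the series. These were the 2 arrays of Lmx1b -/- (KO) limb buds and the 2 arrays of Lmx1b +/+ (WT) limb buds of that day, chosen by their titles. All embryos were C57BL/6 by the labels. Each array held RNA pooled from 6 limbs, forelimbs and hindlimbs both counted among the study's material, and the 2 arrays of a genotype came from different embryos. The tissue was the limb bud together with the girdle, at a stage that the labels place in the limb bud phase. At 12.5 dpc the same tissue was taken, and at 13.5 dpc only the distal limb, again with 2 KO and 2 WT arrays a day. The labels describe the mutation as homozygous and name no driver, inducer or tissue restriction. Sex of the embryos and the share of forelimbs in a pool were not given in the sources used here.

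Lmx1b encodes a LIM-homeodomain transcription factor that is made in the dorsal mesenchyme of the limb bud. It is induced there by Wnt7a, which the dorsal ectoderm secretes, while Engrailed-1 (En1) keeps Wnt7a out of the ventral ectoderm. Limbs without Lmx1b develop ventral structures on both faces, with changes in muscle, tendon, joint and girdle, and loss of 1 copy of the human gene causes nail-patella syndrome. Homeodomain proteins bind short AT-rich DNA with a TAAT core. The bud of this day holds mesenchyme, ectoderm with the apical ridge, vessels, blood, migrating muscle precursors and ingrowing nerves, and condensation of cartilage has begun in its proximal part. In such bulk tissue fewer cells of a type and less RNA per cell cannot be told apart.

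The values are log2 RMA units of Affymetrix Mouse Genome 430 2.0 arrays, with 1 probe set for each of 18193 genes, and differences are KO minus WT. Their precision is limited by the number of arrays. Across all genes the 4 arrays lay close together, with Pearson's r over genes of 0.997 to 0.998 for the 6 pairs. The root mean square difference was 0.16 between the WT arrays and 0.14 between the KO arrays. WT replicate 1 lay nearer to each KO array, at 0.15 and 0.15, than to WT replicate 2, and WT replicate 2 lay 0.19 and 0.17 from the KO arrays. The source label of WT replicate 2 also lacks the word early that the other 3 arrays carry for the limb bud phase. Limb mesenchyme markers were high and alike in both genotypes: Prrx1 read 12.14 to 12.21 and Twist1 10.93 to 11.07. Both Tbx5, the forelimb factor, and Tbx4, its hindlimb counterpart, were measured, at 10.14 to 10.66 and 7.40 to 7.82. The genotypes overlapped on these probe sets. Another bright Tbx5 probe set read 9.94 and 10.05 in WT and 10.16 and 10.74 in KO, without overlap, a difference of 0.45. Another Tbx4 probe set gave -0.11, with overlap. Whether the share of forelimbs differed between the pools was not tested.

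Few genes passed the threshold between KO and WT on this day, and the largest differences were decreases. In limma, adjusted by Benjamini-Hochberg over all genes, 3 genes passed 0.05, which is 0.0165% of those tested, and all 3 were lower in KO. They were Lmx1b itself, Cadps2 and Pdzrn4. No gene passed as higher, although 298 genes had an unadjusted p under 0.05 (1.64%), 95 of them with a higher value in KO (0.522%) and 203 with a lower one (1.12%). A decrease of at least 1 log2 unit was measured in 13 genes (0.0715%) and an increase of that size in 0, and in each of the 13 both KO arrays lay below both WT arrays. At 0.5 log2 units the counts were 79 lower (0.434%) and 12 higher (0.066%).

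Lmx1b, the targeted gene, read 9.28 and 9.64 in the WT pools and 5.60 and 5.72 in the KO pools on its brighter probe set, 1441729_at. The genotypes were wide apart, and the KO level lay below 6.28, the median of all values on the arrays. The WT mean was 9.46 ± 0.25 and the KO mean 5.66 ± 0.08 (SD, n = 2 each), a decrease of 3.80 ± 0.35 log2 units (SE of the fit), or 13.9-fold, with a limma adjusted p of 0.00872. The other probe set of the gene, 1421769_at, read 5.76 and 5.92 in WT and 5.66 and 5.57 in KO. It was below the median of all values in every array, also in WT, and its difference of -0.22 did not pass (adjusted p = 1 over all probe sets). The sources used here do not place either probe set inside or outside the deletion, so the low KO signal checks the labels only as far as the brighter probe set reports the transcript.

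Cadps2 encodes a protein that primes dense-core vesicles for release and is best known from neurons and endocrine cells. Its level was 7.41 and 7.68 in WT and 6.27 and 6.23 in KO, with the KO arrays close together and well below both WT arrays. Cadps2 fell by 1.30 ± 0.13 log2 units, from a WT mean of 7.55 ± 0.19 to a KO mean of 6.25 ± 0.03 (SD, n = 2 each), which is 2.46-fold lower (limma adjusted p = 0.00872). Pdzrn4 encodes a PDZ-domain protein with a RING finger, of the LNX family of ubiquitin ligases. It read 4.95 and 5.44 in WT and 3.86 and 3.82 in KO, all below the median of all values. Pdzrn4 fell by 1.36 ± 0.16 log2 units, from 5.19 ± 0.35 to 3.84 ± 0.03 (SD, n = 2 each), or 2.56-fold (limma adjusted p = 0.0346). In both genes the KO replicates lay closer together than the WT replicates, of which replicate 2 was the higher.

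**Figure D1:**
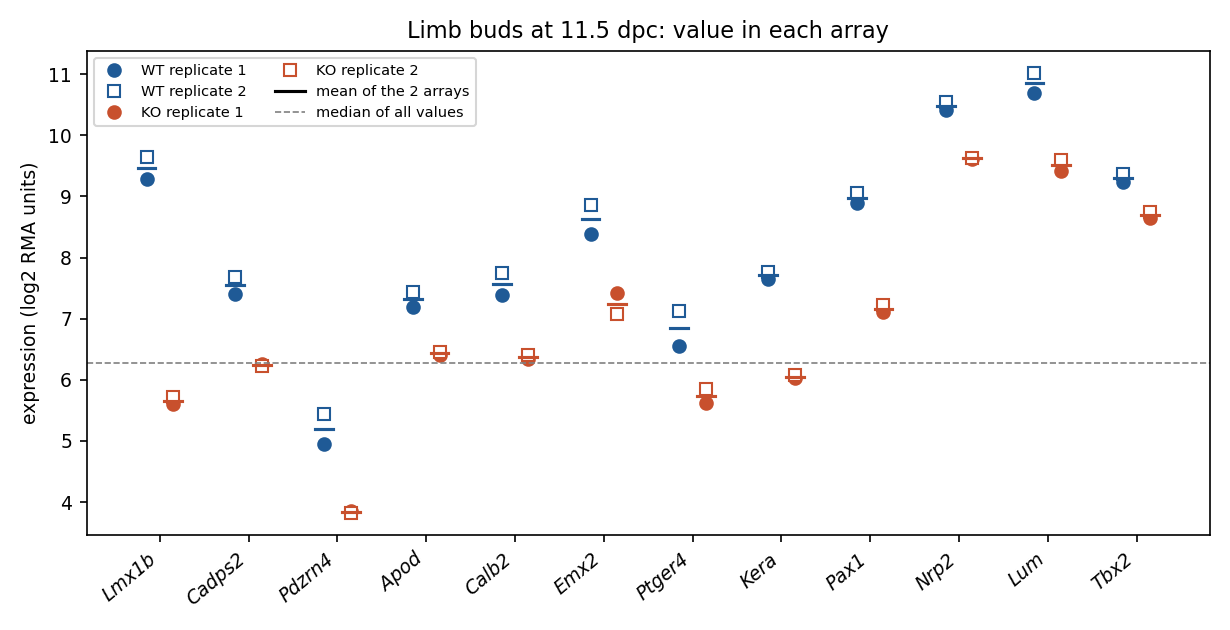
Expression (log2 RMA units) of 12 genes in each of the 4 arrays of 11.5 dpc (WT blue, KO orange), with filled circles for replicate 1, open squares for replicate 2, bars for the mean of the 2 arrays and a dashed line at the median of all values, 6.28. In all 12 genes both KO arrays lie below both WT arrays, and Lmx1b shows the widest gap. Genes picked for the smallest p or the largest difference were taken only from genes without overlap, so for those the choice fixed this.

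The 3 calls depended on the arrays of this day. Without KO replicate 1, without KO replicate 2 or without WT replicate 2 of 11.5 dpc, 0 genes passed the threshold, although all 3 genes still read lower in KO. Lmx1b then had adjusted p-values of 0.172, 0.213 and 0.169 in limma with decreases of 3.74, 3.86 and 3.62, Cadps2 0.172, 0.216 and 0.169 with 1.32, 1.28 and 1.16, and Pdzrn4 0.501, 0.475 and 0.228 with 1.38, 1.34 and 1.11. Without WT replicate 1 all 3 still passed. Pdzrn4 alone also missed the threshold when either array of KO 12.5 dpc (0.0511), WT 12.5 dpc (0.0872) or WT 13.5 dpc (0.112) was left out. The fit to the 4 arrays of 11.5 dpc alone passed Lmx1b (0.00243), Kera and Pax1 (both 0.00514), and gave 0.0804 for Cadps2 and 0.252 for Pdzrn4. With the 8 arrays of 11.5 and 12.5 dpc the limma adjusted p was 0.00177 for Lmx1b, 0.127 for Cadps2 and 0.161 for Pdzrn4. Adjusted over all probe sets that name 1 gene, it was 0.0205 for Lmx1b and for Cadps2, and 0.0724 for Pdzrn4.

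The sequence before the start of the genes that fell with Lmx1b is shown because homeodomain proteins bind a TAAT core and the windows of both genes differ in their content of it. The windows come from RefSeq promoters on GRCm38.p6, a build used for these sequences only. For Cadps2 the 250 bases before the start lie at chr6:23839422-23839671 on the minus strand. For Pdzrn4, which has 2 listed starts, those of the second start lie at chr15:92596859-92597108 on the plus strand. The window of this second start holds more of the core than that of the first, and which start the limb uses was not measured. Both are written 5′ to 3′, with TAAT and its reverse complement ATTA in capitals.
Cadps2: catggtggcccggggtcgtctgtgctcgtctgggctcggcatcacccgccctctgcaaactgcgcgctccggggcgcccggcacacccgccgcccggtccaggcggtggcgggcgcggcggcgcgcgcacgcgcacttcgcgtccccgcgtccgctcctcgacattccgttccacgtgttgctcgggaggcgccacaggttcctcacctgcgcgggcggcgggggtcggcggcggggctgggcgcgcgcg
Pdzrn4: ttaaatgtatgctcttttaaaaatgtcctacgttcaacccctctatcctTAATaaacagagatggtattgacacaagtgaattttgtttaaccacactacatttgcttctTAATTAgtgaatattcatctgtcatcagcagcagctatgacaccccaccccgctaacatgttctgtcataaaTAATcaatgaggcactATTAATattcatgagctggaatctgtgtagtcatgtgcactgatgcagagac
The Cadps2 window holds neither word, and with 50 bases past the start its G and C content was 79.67%, against a median of 52.67% over all windows. The Pdzrn4 window holds 6 occurrences and a G and C content of 39.33%. One stretch is TAATTA, in which both words overlap, and it starts 140 bases before the start. The window of the first Pdzrn4 start has 2 occurrences and that of Lmx1b has 0.

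Windows of 300 bases, 250 before and 50 after the start, were at hand for 10 of 13 genes, 11 windows in all. The 13 are the 3 called genes with Apod, Calb1, Calb2, Cnmd, Emx2, Kera, Lum, Nrp2, Pax1 and Ptger4, chosen with their values known. TAATTA was in 2 of the 11, the second Pdzrn4 window and that of Emx2, where it starts 36 bases after the start site. Of all 32851 windows 5.291% hold TAATTA. The shorter core, on either strand, was in 6 of the 11 windows, those of Pdzrn4, Apod, Emx2, Kera and Nrp2, and in 58.032% of all windows. The windows of Cadps2, Ptger4, Pax1 and Cnmd had neither. These are matches of letters and not measured binding sites.

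Below the 3 called genes, the decreases with the smallest p-values were spread over patterning factors, matrix proteins and signalling genes, and none passed the threshold. Pax1, a paired-box factor of the scapula and the girdle, read 8.90 and 9.05 in WT and 7.11 and 7.22 in KO. Its difference of -1.81 ± 0.38 was the second in size after Lmx1b, and the genotypes were far apart relative to the replicates of this day. The adjusted p was 1 in limma with the spread pooled over all 12 arrays, among which the KO replicates of 13.5 dpc read 6.32 and 7.88. In limma fits to fewer arrays it was 0.00514 with the 4 arrays of 11.5 dpc and 0.127 with the 8 arrays of 11.5 and 12.5 dpc. The mean of the probe sets of Pax1 gave -1.08. A dimmer second probe set of Pax1 gave -0.35. Emx2, a homeobox factor needed for the scapular blade, read 8.39 and 8.86 in WT and 7.41 and 7.07 in KO, a difference of -1.38 ± 0.25 (limma adjusted p = 0.624). Alx1, a homeobox factor of mesenchyme, read 5.54 and 6.62 in WT and 5.35 and 5.40 in KO, a difference of -0.70 that came mostly from WT replicate 2.

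Among matrix genes, Kera, the gene of keratocan, a proteoglycan first known from the cornea, read 7.65 and 7.77 in WT and 6.02 and 6.08 in KO. The difference was -1.66 ± 0.33, wide against the replicates of this day (limma adjusted p = 0.913 over 12 arrays). Among these 12 the KO arrays of 13.5 dpc read 6.27 and 7.69 for Kera. With the 8 arrays of 11.5 and 12.5 dpc the limma adjusted p was 0.00177. It was 0.97 after centring and 0.788 with only genes above the median of all values, so Kera passed in some settings and not in others. Its relative Lum, for lumican, read 10.69 and 11.02 in WT and 9.42 and 9.60 in KO, a difference of -1.35 ± 0.38. Cnmd, for the cartilage glycoprotein chondromodulin, read 8.04 and 8.65 in WT and 6.69 and 7.08 in KO, a difference of -1.46 ± 0.49. In each of the 3 genes the KO arrays lay below both WT arrays, but Kera and Cnmd had been picked among genes without overlap.

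Calb1 and Calb2 encode the calcium-binding proteins calbindin and calretinin, and both were lower in the KO pools. Calb2 read 7.39 and 7.75 in WT and 6.35 and 6.40 in KO, a difference of -1.19 ± 0.20 (adjusted p = 0.535). Calb1 read 6.21 and 7.06 in WT and 5.28 and 4.71 in KO, a difference of -1.64 ± 0.45, and 3 dimmer probe sets of the gene, at 2.91 to 3.66, gave -0.28 to 0.20. Apod encodes apolipoprotein D, a lipid carrier. It read 7.19 and 7.44 in WT and 6.41 and 6.46 in KO, and its difference of -0.88 ± 0.12 came nearest to the threshold of all genes that missed it (limma adjusted p = 0.0897). A dimmer second probe set of Apod gave 0.07.

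Of signalling genes, Ptger4, which encodes a prostaglandin E2 receptor, read 6.56 and 7.13 in WT and 5.62 and 5.85 in KO, a difference of -1.11 ± 0.21. A dim second probe set of Ptger4 gave -0.09. Dkk1, an extracellular inhibitor of WNT signalling, read 7.99 and 8.34 in WT and 7.20 and 7.43 in KO. Its difference was -0.85 ± 0.21 on this probe set and -0.75 on a second, dimmer one. Tbx2, a T-box repressor of the limb margins, read 9.24 and 9.36 in WT and 8.65 and 8.74 in KO, a difference of -0.60 ± 0.14. Dll3, a Notch ligand family member, gave -0.64 ± 0.14. Nrp2, the co-receptor neuropilin-2 for semaphorins and VEGFs, read 10.42 and 10.54 in WT and 9.62 and 9.63 in KO. Its difference was -0.86 ± 0.19, and 2 further bright probe sets of the gene gave -0.85 and -0.86, while the fourth, near the median of all values, gave -0.15.

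**Figure D2:**
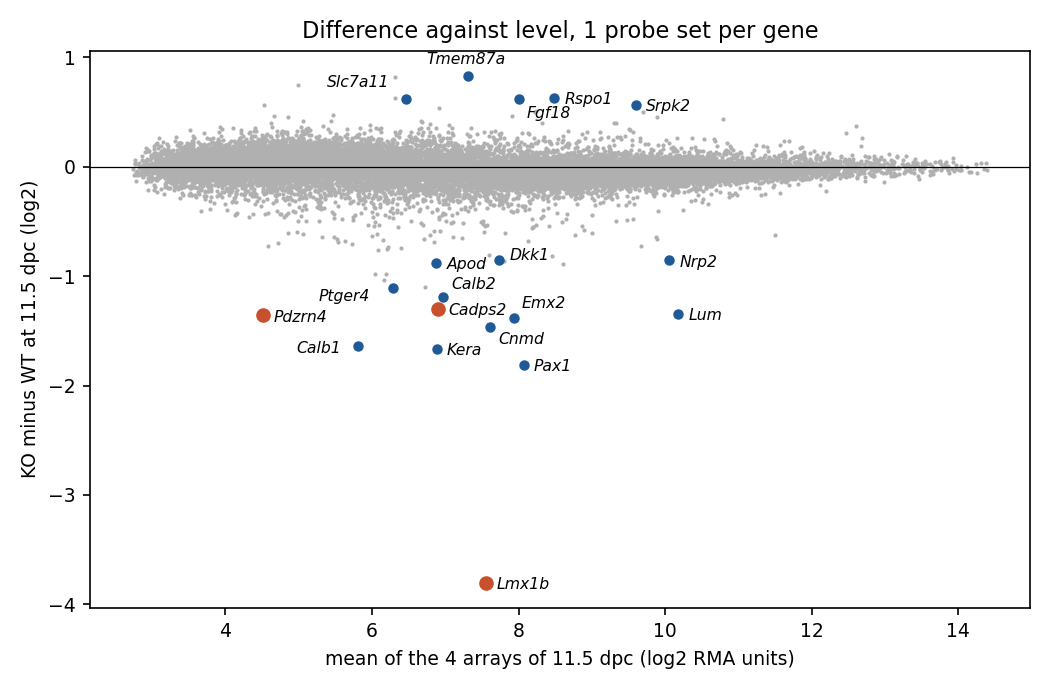
KO minus WT at 11.5 dpc (log2) against the mean of the 4 arrays (log2 RMA units), 1 grey point for each of 18193 genes, with the 3 called genes in orange and other named genes in blue. Lmx1b lies at -3.80, the decreases reach further from 0 than the increases, and the highest gene, Tmem87a, lies at 0.83.

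Smaller decreases were measured in Rab11fip2 and Hemk1, whose replicates lay close together, and in Zfp39. Rab11fip2, a partner of Rab11 in recycling of vesicles, read 8.52 and 8.55 in WT and 8.13 and 8.15 in KO (difference -0.40 ± 0.09), while its other probe sets gave -0.17 and 0.07. Hemk1, a methyltransferase, read 8.12 and 8.07 in WT and 7.65 and 7.72 in KO (-0.41 ± 0.09). Zfp39, a zinc finger protein, read 7.63 and 7.92 in WT and 7.21 and 7.30 in KO (-0.52 ± 0.11). Its WT replicates were thus further apart, and a dim second probe set gave -0.04. None of these passed, with adjusted p of 1 in the fit to all genes.

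No gene rose past the threshold, and the higher values in KO were small. Srpk2, a kinase of splicing factors, had the smallest p of the higher genes: 9.34 and 9.29 in WT and 9.88 and 9.88 in KO, a difference of 0.56 ± 0.15 (limma adjusted p = 1). All 6 probe sets of Srpk2 read higher in both KO arrays, with differences of 0.44 to 0.98. At the later stages the same probe set gave -0.26 at 12.5 dpc and 0.08 at 13.5 dpc. Tmem87a, a membrane protein of the Golgi, read 7.02 and 6.76 in WT and 7.74 and 7.70 in KO (difference 0.83 ± 0.33). Slc7a11, the cystine transporter, read 6.27 and 6.05 in WT and 6.67 and 6.88 in KO (0.62 ± 0.18), and its second probe set gave 0.27.

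**Figure D3:**
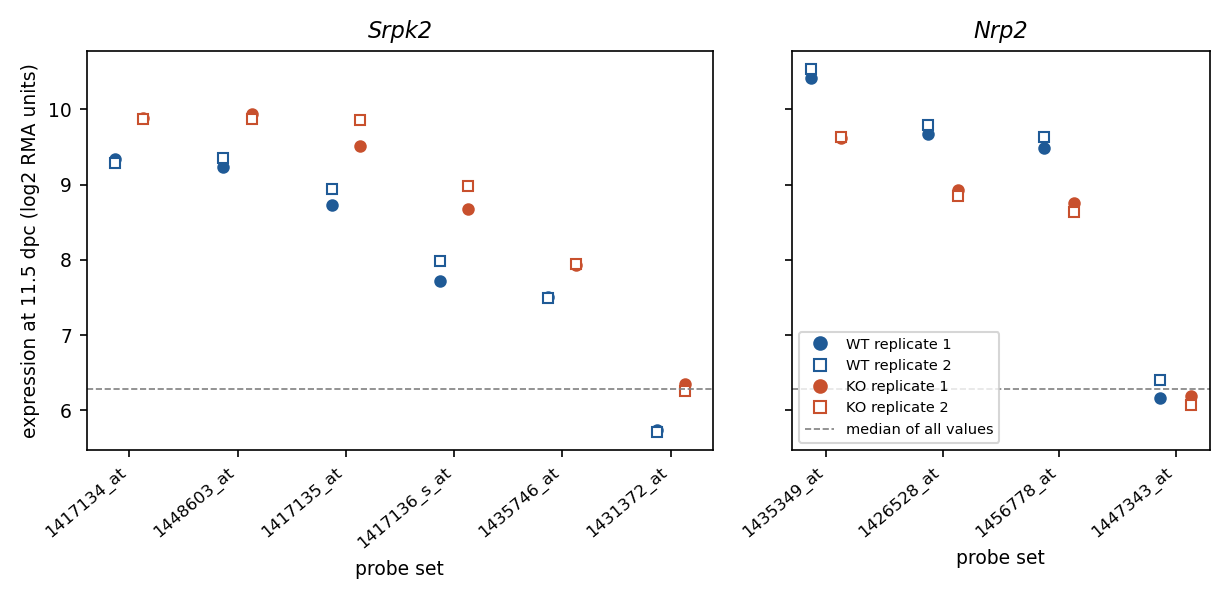
Expression at 11.5 dpc (log2 RMA units) on each of the 6 probe sets of Srpk2 and the 4 of Nrp2, with circles for replicate 1, squares for replicate 2, blue for WT and orange for KO, and a dashed line at the median of all values. Every Srpk2 probe set reads higher in both KO arrays, and the 3 brighter Nrp2 probe sets read lower by 0.85 to 0.86.

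The remaining higher values included secreted signals. Fgf18, a fibroblast growth factor of skeletal tissue, read 7.91 and 7.48 in WT and 8.04 and 8.58 in KO, so the gap between the nearest arrays was smaller than that within either genotype (0.62 ± 0.20). Rspo1, an R-spondin that amplifies WNT signalling, read 8.21 and 8.13 in WT and 8.93 and 8.66 in KO, a difference of 0.63 whose standard error of 0.74 reflects the spread at the later stages. Hgf, the growth factor that draws muscle precursors into the limb, gave 0.41 ± 0.15, and Sostdc1, an inhibitor of BMP and WNT signals, 0.40 ± 0.15. Phex, an endopeptidase of mineralising tissue, gave 0.63 ± 0.50. All of these had an adjusted p of 1. They also had both KO arrays above both WT arrays, but they had been picked among genes without overlap.

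How many genes lean one way depends on the scaling of the arrays. As deposited, 60.3% of all genes had a lower mean in KO and 39.7% a higher one. Both KO arrays lay below both WT arrays in 26.8% and above in 12.8%, together 39.5%, and the median difference was -0.02. After each array was centred on its own median, 37.3% were lower, with 12.3% below and 25.3% above without overlap, and after quantile normalization 48.9% were lower. The brighter genes are the 11664 with a WT or KO mean above the median of all values. As deposited, 69.8% of these were lower, with 34.3% below and 8.57% above without overlap. Most lists given next consist mainly of such brighter genes. No share without overlap was computed for the brighter genes after centring, so the centred counts of lists stand beside all genes only. Centring and quantile normalization gave -3.75 and -3.73 for Lmx1b, -1.25 and -1.23 for Cadps2, and -1.30 and -1.36 for Pdzrn4. Both scalings of the lists were chosen after seeing the data. The medians of gene lists given next are of the size of this shift for most lists, and each list's count is given as deposited and after centring.

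The dorsoventral list held Wnt7a, En1, LIM-homeodomain genes and their cofactors. Besides Lmx1b, 0 of its 20 measured genes passed. Wnt7a, upstream of Lmx1b in the ectoderm, read 7.23 and 6.96 in WT and 7.31 and 7.15 in KO, with overlapping arrays. En1, the ventral ectodermal factor, was below the median of all values, at 5.30 and 4.99 in WT and 5.35 and 5.67 in KO (difference 0.37 ± 0.16, unadjusted p = 0.046). Lmx1a, the paralogue of Lmx1b, was also dim and read 5.63 and 5.90 in WT and 6.00 and 6.03 in KO (0.25 ± 0.15). Lhx2, a LIM-homeodomain factor of the distal mesenchyme, read 10.13 and 10.10 in WT and 9.78 and 9.93 in KO (-0.26 ± 0.13), and Lhx9 overlapped. Ldb2, a cofactor that bridges LIM-homeodomain proteins, read 9.62 and 9.98 in WT and 9.42 and 9.24 in KO (-0.47 ± 0.15), while its relative Ldb1 gave -0.03. Of the 20 genes 15 were lower as deposited and 10 after centring.

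Family members of the called genes, and other priming factors, gave smaller values, and their difference from the called genes was not tested. The list drawn up for these also held Calb2 (-1.19) and Calb1 (-1.64), given above, and the Calb1 value was lower than those of Cadps2 (-1.30) and Pdzrn4 (-1.36). Of its 13 genes, Cadps2 and Pdzrn4 included, 6 were lower as deposited and 5 after centring. Cadps, the paralogue of Cadps2, was dim, at 5.32 and 4.97 in WT and 4.94 and 4.82 in KO (-0.26 ± 0.29). The priming factors Unc13a, Unc13b and Unc13c gave 0.28, 0.06 and 0.05. Pdzrn3, the nearest relative of Pdzrn4, was bright and read 10.29 and 10.30 in WT and 10.21 and 10.28 in KO, a difference of -0.05 that turned to 0.0014 after centring. Dimmer probe sets of Unc13c gave -0.12 each. Lnx2 gave 0.01, and Lnx1 gave 0.03 on its brighter probe set. A second Lnx1 probe set read 6.08 and 6.20 in WT and 5.79 and 5.68 in KO, a difference of -0.41 (unadjusted p = 0.0239, limma adjusted p = 1). Apart from Cadps2 and Pdzrn4 themselves, no gene of the list passed.

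Skeletal genes leaned lower without any passing the test. Of 25 cartilage genes 21 were lower as deposited and 19 after centring, and the median difference was -0.17 against -0.02 for all genes. In 13 (52%) both KO arrays lay below both WT arrays, against 26.8% of all genes and 34.3% of the brighter ones, and in 0 above. After centring these counts were 11 (44%) and 3 (12%), against 12.3% and 25.3% of all genes, with no centred share for brighter genes. The count lower ranged from 16 to 22 when each array of 11.5 dpc was left out. After Cnmd the largest differences were in the matrix genes Matn1 (-0.98 ± 0.53), Acan (-0.66 ± 0.38), Col9a3 (-0.49 ± 0.30) and Matn4 (-0.48 ± 0.45). Replicate 2 read above replicate 1 for 18 of the 25 genes in WT and 20 of the 25 in KO, and the mean level of the list was 8.06 and 8.24 in WT and 7.79 and 7.99 in KO. The master regulator Sox9 gave -0.09 and Col2a1, the main cartilage collagen, -0.06, and both turned positive without KO replicate 1.

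Of 16 joint interzone genes 13 were lower (12 after centring), with a median of -0.16. The joint median was -0.07 without KO replicate 1, -0.11 without WT replicate 2, -0.24 without WT replicate 1 and -0.28 without KO replicate 2. Gdf5, the growth factor that marks the forming joint, read 8.96 and 9.21 in WT and 8.32 and 8.60 in KO (-0.62 ± 0.34), and Nog, a BMP antagonist needed for joints, gave -0.51 ± 0.53 with overlapping arrays. The 22 tendon genes had a median of 0.01 and 9 lower members, also 9 after centring, and 16 without KO replicate 2, with a median of -0.11. Within that list Mkx, a homeobox factor of tendon, read 7.96 and 8.05 in WT and 7.03 and 7.35 in KO (-0.81 ± 0.30), whereas Scx, the early tendon factor, gave 0.10. Tnmd, a marker of mature tendon, was dim and gave -0.28 ± 0.30.

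Of 14 small leucine-rich proteoglycan genes 9 were lower as deposited and 7 after centring. Below Kera and Lum came Dcn, for decorin, at 8.25 and 8.67 in WT and 7.83 and 7.98 in KO (-0.56 ± 0.38, with 0.22 on a dim second probe set), and Epyc (-0.37 ± 0.31). Ogn, for osteoglycin, read 9.24 and 8.97 in WT and 9.36 and 9.66 in KO (0.40 ± 0.53), and Podn gave 0.28 ± 0.16. None of the 14 passed.

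Among 26 genes of the proximal limb and girdle 16 were lower, and 13 after centring. Shox2, a homeobox factor of the upper limb segment, read 11.79 and 11.85 in WT and 11.15 and 11.23 in KO, a gap much wider than the replicates, with -0.63 ± 0.35 and an unadjusted p of 0.101 in the pooled fit. Foxc2, a forkhead factor of mesenchyme, gave -0.55 ± 0.25 and Hoxb6 -0.46 ± 0.29. In the other direction Pax9, the relative of Pax1, read 7.62 and 7.14 in WT and 7.60 and 7.78 in KO (0.31 ± 0.15), and Alx4, an anterior homeobox factor, gave 0.35 ± 0.13. The 11 distal Hox genes had 1 lower member as deposited, 0 after centring and 4 without KO replicate 2. Their differences ran from -0.05 in Hoxd13 to 0.20 in Hoxa10, and the median was 0.06, or 0.01 without KO replicate 2.

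Signalling pathways showed no called member, and their medians ran from -0.09 for BMP genes to 0.06 for FGF genes. Of 25 BMP genes 19 (76%) were lower as deposited, against 60.3% of all genes and 69.8% of the brighter ones, and 17 after centring. Gdf5, Nog, Id4 (-0.30 ± 0.14) and Bmp2 (-0.28 ± 0.19) were lowest. In 11 (44%) both KO arrays lay below, against 26.8% of all genes and 34.3% of the brighter ones, and in 0 above. After centring these counts were 7 (28%) and 3 (12%), against 12.3% and 25.3% of all genes, with no centred share for brighter genes. Of 19 hedgehog and anteroposterior genes 15 were lower and 11 after centring, led by Tbx2. Of 35 WNT and R-spondin genes 18 were lower and 14 after centring, with Dkk1 and Sfrp1, a secreted WNT inhibitor (-0.64 ± 0.25), lowest and Rspo1 highest. The other 4 probe sets of Sfrp1 gave -0.68, -0.52, -0.31 and 0.0066. Of 25 genes of FGF signalling and the apical ridge 10 were lower and 8 after centring. Fgf8, the main ridge signal, read 7.99 and 8.38 in WT and 7.85 and 7.71 in KO (-0.41 ± 0.45), Fgf17 gave -0.28 ± 0.11 and Etv4, a target of FGF signalling, 0.27 ± 0.15.

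The retinoid list had a few lower members and none past the threshold. Aldh1a2, which makes retinoic acid in the proximal limb, read 8.98 and 9.13 in WT and 7.85 and 8.48 in KO (-0.89 ± 0.38). Rarb, a receptor gene that responds to retinoic acid, gave -0.60 ± 0.53. Of the 17 genes of the list 12 were lower, and 7 after centring.

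Axon guidance genes held several of the larger decreases below the threshold. Of 37 measured 26 were lower as deposited and 23 after centring. Both KO arrays lay below in 17 (45.9%), against 26.8% of all genes and 34.3% of the brighter ones. They lay above in 5 (13.5%), against 12.8% and 8.57%. After centring they lay below in 15 (40.5%) and above in 7 (18.9%), against 12.3% and 25.3% of all genes. A centred share of the brighter genes, to which most of this list belongs, was not computed. After Nrp2, the netrin Ntn1 read 9.95 and 10.12 in WT and 9.40 and 9.23 in KO (-0.72 ± 0.43). A dimmer Ntn1 probe set gave -0.36. The ligand Slit2 read 9.09 and 9.28 in WT and 8.70 and 8.51 in KO (-0.58 ± 0.28), and dimmer probe sets gave -0.20 and -0.73. The receptor Epha7 read 8.96 and 8.73 in WT and 8.39 and 8.27 in KO (-0.51 ± 0.18). Its other probe sets gave the smaller differences of -0.26, -0.29 and -0.25. Slitrk1 (-0.64 ± 0.36) and Gdnf, a neurotrophic factor (-0.59 ± 0.40), were dimmer.

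**Figure D4:**
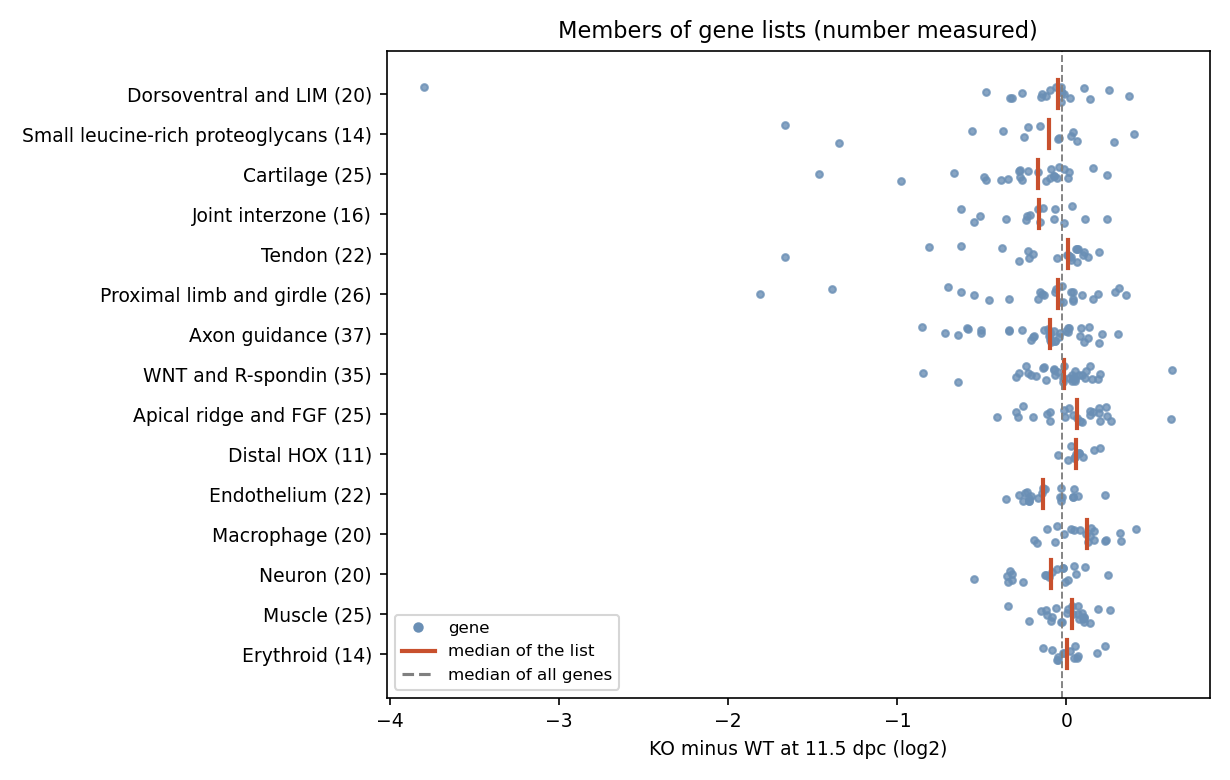
KO minus WT at 11.5 dpc (log2) for the measured members of 15 gene lists, 1 point for each gene, with an orange bar at the list's median and a dashed line at the median of all genes, -0.02. Cartilage and joint genes have medians of -0.17 and -0.16, macrophage genes 0.12, and Lmx1b is the lone point at -3.80.

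Markers of other cell types differed little between genotypes, and none passed. Endothelial genes leaned lower in 17 of 22 (13 after centring), among them the VEGF receptor Kdr, at 9.38 and 9.60 in WT and 9.26 and 9.16 in KO (-0.28 ± 0.10), and the list's mean level was 8.07 and 8.21 in WT and at most 8.04 in KO. Macrophage genes leaned higher in 14 of 20 (15 after centring). Both KO arrays lay above in 10 (50%) and below in 2 (10%), against 12.8% and 26.8% of all genes and 8.57% and 34.3% of the brighter ones. After centring the counts were 13 (65%) and 1 (5%), against 25.3% and 12.3% of all genes, with no centred share for brighter genes. The microglial and macrophage receptor Cx3cr1 read 6.52 and 6.45 in WT and 6.68 and 7.11 in KO (0.41 ± 0.22). Adgre1, for F4/80, gave 0.32 ± 0.13 and C1qc 0.23 ± 0.09. Of the 6 lower members Stab1 was lowest (-0.19), at 7.80 and 7.86 in WT and 7.67 and 7.60 in KO. The median of the macrophage list was 0.12, and 0.06 without WT replicate 1, and its mean level was 7.11 and 7.16 in WT and 7.23 and 7.23 in KO. Neuronal genes were lower in 15 of 20 (12 after centring), with Dcx, an early neuronal microtubule protein, at 8.63 and 8.76 in WT and 8.19 and 8.11 in KO (-0.55 ± 0.25). Another bright Dcx probe set gave -0.69, and 2 dimmer ones -0.15 and 0.13. The neuronal list's mean level was 6.40 and 6.52 in WT and 6.32 and 6.35 in KO, and its part in the guidance differences was not tested.

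Muscle genes were lower in 10 of 25 (8 after centring) and had a median of 0.03, which ran from -0.02 to 0.06 when each array was left out. Surface ectoderm genes were lower in 5 of 20 (3 after centring), with 10 without WT replicate 2 and 11 without KO replicate 2. The erythroid list, with 7 of 14 lower (2 after centring) and a median of 0.01, had both KO arrays above in 1 (7.14%) and below in 0. Over all genes these shares were 12.8% and 26.8%. Without WT replicate 1, WT replicate 2, KO replicate 1 or KO replicate 2 in turn, 9, 4, 4 or 10 erythroid genes were lower, with medians from -0.08 to 0.07. The pools may differ in the sex of their embryos: Xist read 11.69 and 11.45 in WT and 12.44 and 11.18 in KO, and the Y-linked Kdm5d 7.85 and 7.81 in WT and 6.62 and 7.85 in KO. KO replicate 1 thus stood apart in both, and its part in the results was not tested beyond the fits without it given above.

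The effect of the knockout at 11.5 dpc was then set against that at the later stages, in the same fit, where limma passed 7 genes (0.0385%) at 12.5 dpc, 5 lower (0.0275%) and 2 higher (0.011%), and 5 (0.0275%) at 13.5 dpc, all lower. No gene passed for a difference of the effect between 11.5 and 12.5 dpc or between 11.5 and 13.5 dpc, with 1132 genes (6.22%) and 377 genes (2.07%) at an unadjusted p under 0.05. Array names carry a prefix of their own at each stage, so stage and array series cannot be told apart, nor at 13.5 dpc can the dissected tissue. The decrease of Lmx1b was 3.80 at 11.5 dpc and its difference was -2.66 at 12.5 dpc and -2.05 at 13.5 dpc, with KO arrays at 5.60 and 5.72, then 6.50 and 7.02, then 7.48 and 8.88. The differences between stages were -1.14 ± 0.50 and -1.75 ± 0.50, neither past the threshold (limma adjusted p = 0.793 and 1).

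Cadps2 gave -1.30, -0.99 and -0.36 at the 3 stages in turn. It also passed at 12.5 dpc in this fit (limma adjusted p = 0.0364), as did Lmx1b (0.0476). Pdzrn4 gave -1.36, -0.55 and -0.20 and passed at 11.5 dpc only. The differences of Cadps2 and Pdzrn4 between 11.5 and 13.5 dpc, -0.94 ± 0.18 and -1.16 ± 0.22, had unadjusted limma p-values of 0.000327 and 0.000395 and an adjusted p of 0.99. Calb2 had the smallest p of all genes for that difference. It gave -1.19 at 11.5 dpc, -0.45 at 12.5 dpc and 1.38 at 13.5 dpc, where the KO arrays read 7.41 and 7.74 and the WT arrays 6.27 and 6.13. The difference between 11.5 and 13.5 dpc was -2.57 ± 0.29 (limma adjusted p = 0.07). Pax1 also gave a lower value at 11.5 and 12.5 dpc (-1.81 and -0.82) and a higher one at 13.5 dpc (0.69), with KO arrays of that last day at 6.32 and 7.88 around WT arrays at 6.47 and 6.34. Foxf2, a forkhead factor, gave -0.14 at 11.5 dpc and -1.51 at 13.5 dpc (difference 1.37, adjusted p = 0.125).

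Between 11.5 and 12.5 dpc the smallest p-values belonged to Nfkbiz, an inhibitor of NF-kappaB proteins, and Nrap, a muscle protein. Nfkbiz read 7.26 and 7.17 in WT and 6.92 and 6.90 in KO at 11.5 dpc, a difference of -0.30, against 0.77 at 12.5 dpc (difference between stages -1.07, adjusted p = 0.254). Tbx2 gave -0.60 at 11.5 dpc, -0.07 at 12.5 dpc and -0.01 at 13.5 dpc, and Dkk1 -0.85, -0.04 and -0.26. Kera went the other way, with -1.66, -3.67 and -3.02, as its WT level was 7.71 at 11.5 dpc and at least 9.88 in each WT array of the later stages. Its differences between stages, 2.00 ± 0.46 and 1.36 ± 0.46, did not pass in limma (adjusted p = 0.686 and 1).

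**Figure D5:**
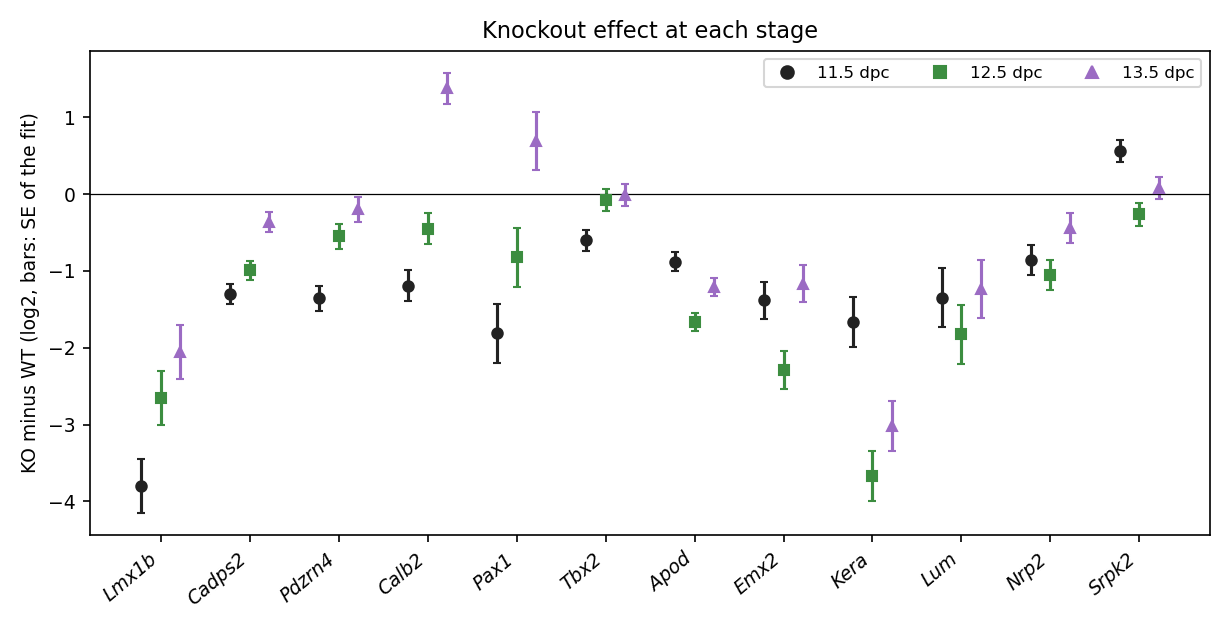
KO minus WT (log2) of 12 genes at 11.5 dpc (black circles), 12.5 dpc (green squares) and 13.5 dpc (purple triangles), with the SE of the limma fit to all 12 arrays as bars. Lmx1b, Cadps2 and Pdzrn4 are lowest at 11.5 dpc, Kera, Apod and Emx2 are lowest at 12.5 dpc, and Calb2 lies below 0 at 11.5 dpc and above it at 13.5 dpc.

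Genes that the 8 later arrays pick out without the arrays of 11.5 dpc were then read on this day. A fit to those 8 arrays passed 4 genes at 12.5 dpc (0.022%), 4 at 13.5 dpc (0.022%) and 9 in their mean (0.0495%), together 10 (0.055%): Lmx1b, Kera, Emx2, Apod, Cbln2, Insyn2b, Nwd2, Gpm6a and Foxf2 as lower and Pax9 as higher. Leaving aside the targeted gene, the other 9 had the same sign at 11.5 dpc, 8 lower and 1 higher, where 60.3% of all genes were lower as deposited and 37.3% after centring. In 7 of the 9 the genotypes did not overlap, against 39.5% of all genes, and 5 had an unadjusted p under 0.05, against 1.64%. None of the 9 passed the adjusted threshold, and their median was -0.50 against -0.02 for all genes. Cbln2, a synaptic organiser of the cerebellin family, read 6.03 and 6.57 in WT and 5.76 and 5.77 in KO (-0.54 ± 0.26). Insyn2b, for a protein of inhibitory synapses, read 5.34 and 5.37 in WT and 4.66 and 5.05 in KO (-0.50 ± 0.14). Gpm6a overlapped and turned positive, at 0.06, without KO replicate 1. The number picked ranged from 1 without WT replicate 1 of 13.5 dpc to 282 without KO replicate 1 of 12.5 dpc, and the standard errors at 11.5 dpc pool the spread of the same 8 arrays.

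The genes next to Lmx1b on the chromosome gave small differences. As deposited, of the 50 measured genes nearest in RefSeq gene order, 25 on each side, 0 passed and 3 had an unadjusted p under 0.05. Differences ran from -0.31 in Garnl3 to 0.37 in 4930402F06Rik, with a median of -0.06. Both KO arrays lay below both WT arrays in 22 of the 50 (44%), against 26.8% of all genes and 34.3% of the brighter ones. They lay above in 3 (6%), against 12.8% and 8.57%. These counts were made as deposited only, and the part of the scaling in them was not tested. The neighbours on either side, Zbtb43 and C130021I20Rik, gave -0.03 and -0.08.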

How the data were processed

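RNA of limb pools had been hybridised to Affymetrix Mouse Genome 430 2.0 arrays, 1 array per pool. The authors deposited log2 values made by RMA, per the submitters' processing notes; version and settings are not given in the sources used here. The table held 45101 probe sets, of which 64 were controls. Of the rest, 34945 name 1 gene in GEO's platform annotation, 932 name several and 9160 are unnamed here. For each of 18193 genes the kept probe set was the one brightest on average across the 12 arrays, and no dim gene was removed. limma 3.58.1 in R 4.3.3 fitted 6 group means to all 12 arrays (lmFit, eBayes; 6 residual and 4.22 prior degrees of freedom). P-values are two-sided, adjusted by Benjamini-Hochberg over all genes, with a threshold of 0.05, and errors marked SE come from this fit. The fit was tested on simulated data with independent noise for each gene and no shift of a whole array, so that test does not cover the scaling of the arrays. Group labels came from the sample titles, and replicates were different embryos by the series text.

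Genes named are Lmx1b, every gene called, the 12 in each direction with the smallest p and the 6 with the largest difference among bright genes without overlap of the arrays, up to 6 of each list, and genes called at the later stages. The members and lists were chosen with earlier results of these data known. Alternatives left out arrays, changed the scaling, the probe set, the filter, the variance model or the arrays fitted.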

Additional observations from a re-analysis of the deposited data

How the results depend on the processing

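Settings that leave out only later arrays, or change only the variance model, leave the 11.5 dpc differences as they are by construction. Leaving out an array of 11.5 dpc moved them: Matn1 ranged from -1.48 to -0.47, and Calb1 reached -2.07, and -0.47 with the mean of its probe sets. Calls for KO minus WT at 11.5 dpc numbered 3, 0 to 5 when each array was left out, 7 without both KO replicate 2 arrays of the later stages and 14 with array quality weights, all lower. Whether replicate numbers pair KO with WT samples is not settled. The correlation of KO and WT replicate deviations over genes was 0.19 at 11.5 dpc, -0.12 at 12.5 dpc and -0.09 at 13.5 dpc. Such a correlation can neither show nor exclude pairing, as genes of 1 array vary together. With the replicate block 0 genes passed in limma and Lmx1b gave -3.80 (adjusted p = 0.0638). Lmx1b ranged from -3.98 to -3.62 when each array was left out, and gave -3.80 with an intensity trend and robust prior (adjusted p = 0.106), in which Cadps2 and Pdzrn4 still passed. On probe set 1421769_at it gave -0.22. Pdzrn4 also missed the threshold under quantile normalization (0.0879). The cause of these changes was not tested.

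The differences between stages had 0 calls. For 11.5 minus 12.5 dpc leaving out arrays gave 0 to 38, the highest without KO 12.5 dpc replicate 1, and 1 without both KO replicate 2 arrays. For 11.5 minus 13.5 dpc leaving out arrays gave 0 to 12, the highest without KO 13.5 dpc replicate 1, and 1 without both KO replicate 2 arrays. The mean of probe sets gave 2, and centring, the intensity trend and the weights gave 1 each, Calb2. Genes picked at later stages with the same sign numbered 10, and 1 to 237 when arrays were left out, the highest being 237 of 282 without KO 12.5 dpc replicate 1. Of 29 lists 21 had a median below 0, 18 to 24 when arrays were left out, and, with scalings chosen after seeing the data, 11 after centring and 17 after quantile normalization.

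Other probe sets turned the sign of genes that included Apod (0.0662), Rab11fip2 (0.0745), Calb1 (0.20), Wnt7a (-0.0506), Dcn (0.22) and Sfrp1 (0.0066). The same held for Dcx (0.13), Lnx1 (-0.41), Xist (-0.0901), Kdm5d (0.21), Nfkbiz (0.30), Lhx9 (0.0845 and 0.1007), Col4a3 (-0.0866) and Unc13c (-0.12). Centring turned the sign of Pdzrn3 (0.0014). Leaving out arrays gave -0.19 to 0.0127 for Sox9, -0.17 to 0.053 for Col2a1, -0.45 to 0.0605 for Gpm6a, -0.40 to 0.86 for Xist and -1.20 to 0.0176 for Kdm5d.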

Other observations

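Cell cycle genes were measured at nearly equal levels in both genotypes. The 20 members read between -0.15 in Myc and 0.12 in Ccna2, with 0 past the threshold and a median of -0.02, that of all genes. Of these 13 were lower as deposited and 3 after centring. Of 18 heat shock and immediate early genes 12 were lower as deposited and 6 after centring, and Hspa1b had the largest difference, -0.27. Of 12 hypoxia genes 11 were lower as deposited and 7 after centring, and 6 and 4 without WT replicate 2 and without KO replicate 1. Car9, an enzyme induced by low oxygen, gave -0.31 and Egln3 -0.29.

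Of 20 collagen genes 13 were lower as deposited and 10 after centring. Col14a1 gave -0.62 and Col23a1 -0.50, while Col1a1, Col1a2 and Col3a1, the abundant fibrillar genes, gave -0.06, 0.07 and 0.01. Genes described as Lmx1b-dependent in kidney and eye were measured for 11 members, 8 lower as deposited and 6 after centring. Apart from Kera they lay between -0.29 in Wt1 and 0.19 in Col4a3, and 0 passed.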
